A study of Mus musculus with 6 samples.

Results

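Reads annotated to short interspersed elements (SINEs) were examined in messenger RNA libraries of Mvt1, a mouse mammary carcinoma cell line of the FVB/N strain. A read was counted when its annotation named the SINE class, and reads were summed per repeat name and per family, the last field of the annotation. Of 16023 annotations, 41 were SINE names, in 7 families. They held 2022763 of 98367174 mapped reads and 1293506 distinct 47-nt sequences, of which 82.1% were seen once in all 6 libraries together. Levels are reads per 1000000 mapped reads (RPM), summed over all copies of a name in the genome and not divided by length.

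SINEs are short retrotransposons that carry no coding sequence and depend on the LINE machinery to copy themselves. B1 elements, which the annotation lists under the family Alu, descend from the 7SL RNA of the signal recognition particle. B2, ID and MIR elements descend from transfer RNA genes, and B4 elements join an ID-like part to a B1-like part. A free SINE RNA is made by RNA polymerase III from internal A and B boxes. Far more copies are carried passively in introns and 3' untranslated regions (3' UTRs) of RNA polymerase II transcripts, and a library of polyadenylated RNA reads mainly those.

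The cells had been stained for the surface protein CD24 and sorted into CD24- and CD24+ groups. Each group is represented by 3 libraries from 3 plates of adherent cells. Both groups come from the same line, and no repeat sort is described, so the spread between libraries and every p-value measure the spread between plates. A difference tied to CD24 and one that arose otherwise between the sorted groups cannot be told apart. Cd24a, the gene of the sorted marker, had 12.1, 11.5 and 7.03 CPM in the CD24- libraries and 72.1, 85.8 and 73.4 CPM in the CD24+ libraries, a log2 fold change of 2.91 ± 0.17 (standard error, SE, adjusted p = 5.43e-07, edgeR).

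Libraries held between 9046025 and 25692147 mapped reads. CD24+ replicate 1 was the shallowest and stood apart in several SINE measures, and the main SINE values are also given without it. Reads annotated to ribosomal RNA took 0.82% to 0.91% of the CD24- libraries and 1.20% to 3.51% of the CD24+ libraries. The part of these differences in the SINE results was not tested. Of the epithelial markers, Krt8, Krt18 and Krt19 were lower in CD24+ cells. Cldn3 was higher but near 0 in both groups (means 0.397 and 2.46 CPM), and Cdh1, Epcam, Krt5 and Krt14 were at or near 0. Of 6 matched mesenchymal markers 5 were higher in CD24+ cells, beside 23.9% of all genes tested. Col1a1 (means 0.976 and 3.20 CPM), Col1a2 (0.572 and 1.57) and Dcn (0.0667 and 2.05) were near 0 in both groups. Pdgfra rose from a mean of 6.25 to 11.3 CPM and Pdgfrb from 4.82 to 66.7. Vim, the most abundant at 3896 and 4373 CPM, did not pass (adjusted p = 0.248, edgeR). Of 4 matched immune markers only Cd68, also made by other cells, had enough reads for the test, and it fell from a mean of 64.7 to 8.14 CPM (log2 fold change -3.03, adjusted p = 2.39e-06), while Ptprc was at or near 0 in both groups. Of 4 endothelial markers, Cdh5 fell from 1.85 to 0.245 CPM (log2 fold change -3.23, adjusted p = 0.000281), Tek did not pass, and Pecam1 and Kdr were at or near 0. The part of these genes in the SINE results was not tested.

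The read sequences show what the label SINE covers here. Each is printed 5' to 3' as sequenced, with its mm9 position, and capitals mark a match to the B box letters GTTCNANNC on either strand. The first reads matched no transcript of GENCODE M21 and were, in their families, the most frequent such reads with a B box. They share a stretch of 16 bases (a 16-mer) with SINE reads of 6590, 2663, 37 and 9 1-kb windows, respectively. Their copies numbered 32, 49, 12 and 30. The reads of this kind in the MIR and tRNA families, with 8 and 1 copies, had only 2 and 1 such windows and are not shown.
B1_Mus2, family Alu, chr17:35134387-35134433: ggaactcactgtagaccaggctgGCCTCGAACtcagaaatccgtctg
B2_Mm2, family B2, chr2:4754090-4754136: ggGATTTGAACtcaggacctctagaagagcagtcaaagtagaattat
ID_B1, family B4, chrX:101703904-101703950: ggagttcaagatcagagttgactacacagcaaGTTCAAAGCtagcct
ID4_, family ID, chr2:104667905-104667951: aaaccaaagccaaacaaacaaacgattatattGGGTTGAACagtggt

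The most frequent reads of a family outside UTRs looked different, and their sequences are shown because they carry the SINE label while sharing few or no 16-mers with SINE reads elsewhere. The most frequent B2-family and B4-family reads, with 1176 and 783 copies, were made wholly of 16-mers that reads annotated to ribosomal RNA also hold. The most frequent reads of 2 of the most abundant windows matched the coding sequence of the ribosomal protein genes Rpl28 and Rpl9. That of LFSINE_Vert matched the coding sequence of Pcbp2, an RNA-binding protein. None of these reads shared a 16-mer with more than 2 windows.
B3, family B2, chr6:49186448-49186494: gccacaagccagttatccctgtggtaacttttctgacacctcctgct
RSINE1, family B4, chr16:57391741-57391787: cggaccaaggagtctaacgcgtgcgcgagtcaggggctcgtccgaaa
B4A, family B4, chr4:125747470-125747516, Rpl28: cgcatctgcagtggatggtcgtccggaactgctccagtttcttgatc
ID_B1, family B4, chr13:72592727-72592773, Rpl9: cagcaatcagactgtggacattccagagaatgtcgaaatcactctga
LFSINE_Vert, family SINE, chr15:102316399-102316445, Pcbp2: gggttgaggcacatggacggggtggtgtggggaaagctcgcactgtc

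Across all SINE reads, 53.6% to 54.5% of a library held a 16-mer found in SINE reads of at least 6 windows, a sign of interspersed sequence. These 16-mers were taken from the SINE reads themselves, so a lower share in other classes was partly set in advance. Sharing among windows of the other classes was not measured. In a sample of 1 in 10 distinct sequences, 1.26% to 1.36% of reads annotated to genes held such a 16-mer. So did 2.16% to 2.81% of LINE reads and 1.08% to 1.36% of LTR reads. The share was 71.3% in the B2 family, 63.9% in the Alu family, 37.6% in B4, 29.3% in ID, 4.70% in MIR and 1.13% or less in the others. MIR copies are known to be old and diverged. Whether the remaining reads hold SINE sequence was not tested, since no consensus was compared.

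SINE reads made up 2.25%, 2.09% and 2.36% of the mapped reads in the 3 CD24- libraries and 1.63%, 2.01% and 1.99% in the 3 CD24+ libraries. The groups did not overlap, and CD24+ replicate 1 was the lowest. The log2 ratio of the means was -0.25, and the exact permutation test gave p = 0.1, the smallest two-sided value that 3 libraries against 3 can give. Without CD24+ replicate 1 the log2 ratio was -0.16. In RNA of bulk cells, fewer cells of a kind and less RNA per cell cannot be told apart. The groups overlapped when SINE reads were set against reads with no annotation (exact permutation p = 0.2). They also overlapped when each distinct sequence was counted once (exact permutation p = 0.6), a count that depends on depth. A distinct SINE sequence had 1.18 to 1.21 reads in CD24- and 1.20 to 1.30 in CD24+ libraries. At the depth of these libraries counting error was small, with a Wilson 95% interval of 1.62% to 1.63% in the shallowest library. Intervals cover counting error only.

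Of the 7 families, 6 had a lower mean in CD24+ cells on the mapped-read scale and 1 a higher mean, and edgeR's quasi-likelihood test over 46 repeat families called 1 of them at an adjusted p below 0.05. Over all repeat families 23.9% were called, 15.2% lower and 8.7% higher.

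**Figure D1:**
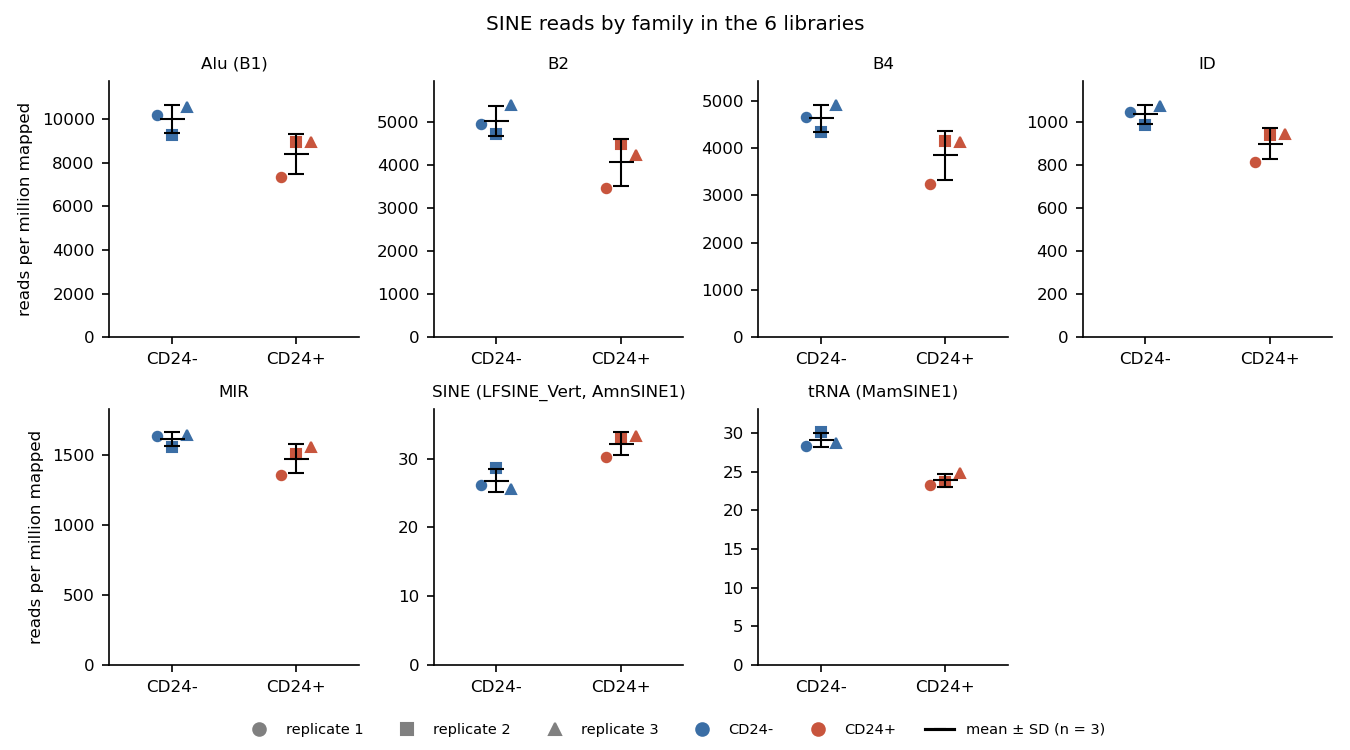
Reads per 1000000 mapped reads (RPM, y axis, from 0) of the 7 SINE families in the 3 CD24- and 3 CD24+ libraries, with the mean and SD over 3 libraries in black. CD24+ replicate 1 is the lowest library in the Alu, B2, B4, ID and MIR panels, and the SINE family (LFSINE_Vert and AmnSINE1) is the one higher in CD24+ cells.

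The Alu family, whose 20 names are mostly B1 elements, held 44.8% of SINE reads. Its levels were 10198, 9280.1 and 10560.2 RPM in the CD24- libraries and 7334, 8951 and 8958 in the CD24+ libraries. All CD24+ values lay below all CD24- values, yet the log2 fold change of -0.25 (SE 0.11) did not pass the test (adjusted p = 0.103). The tRNA-derived B2 family had 4963, 4719 and 5399.9 against 3456, 4492 and 4237 RPM, again without overlap. Its log2 fold change was -0.31 ± 0.11 (SE, adjusted p = 0.0684). The composite B4 family had 4651, 4330.2 and 4900.1 against 3248, 4156 and 4123, with a log2 fold change of -0.27 ± 0.11 (SE, adjusted p = 0.0921). In these 3 families the lowest value was that of CD24+ replicate 1. Without that library the log2 fold changes were -0.16 for Alu, -0.20 for B2 and -0.16 for B4, and none passed the test. Without CD24+ replicate 2, B2 (-0.39, adjusted p = 0.011) and B4 (-0.33, adjusted p = 0.0325) were called lower. Scaled to annotated reads, B2 (-0.30, adjusted p = 0.0453) and ID (-0.20, adjusted p = 0.0489) were called lower as well.

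The ID family had 1043, 987 and 1074 RPM in CD24- and 814, 939.8 and 943 in CD24+ libraries, with a log2 fold change of -0.20 ± 0.08 (SE, adjusted p = 0.0821). MIR elements, the oldest abundant family, had 1636, 1559 and 1647 against 1357, 1509 and 1559. The log2 fold change was -0.13 ± 0.08 (SE, adjusted p = 0.211), or -0.07 without CD24+ replicate 1. MIR reads with a widely shared 16-mer, 4.70% of the family, had -0.25 and were called lower (adjusted p = 0.0336), in a split not planned in advance. For all MIR reads the sign turned to 0.07 with TMM scaling and to 0.02 with DESeq2. Both scalings moved the median over all repeat families by over 0.1 on the log2 scale, from -0.16 to 0.04 and -0.01. The log2 fold changes of the Alu, B2, B4 and ID families were then -0.05, -0.11, -0.07 and -0.000412 with TMM and -0.10, -0.16, -0.12 and -0.05 with DESeq2, and none passed the test.

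The family called was tRNA, whose only member is the ancient MamSINE1. It had 28.3, 30.0 and 28.7 RPM in CD24- and 23.2, 23.6 and 24.8 in CD24+ libraries, a tight pair of groups, with a log2 fold change of -0.28 ± 0.08 (SE, adjusted p = 0.0438). It did not pass with TMM scaling (log2 fold change -0.09), with DESeq2 (-0.14) or when any library other than CD24+ replicate 1 was left out (-0.31 to -0.25). Of its reads, 92.3% matched a 3' UTR, and those of Rlim, a ubiquitin ligase, made up 27.3% and had a log2 ratio of -0.37. Reads matching Etv5, an ETS transcription factor, and the GTPase gene Nras overlapped between groups, with log2 ratios of -0.51 and 0.04. The family labelled SINE had 26.2, 28.7 and 25.6 against 30.3, 33.0 and 33.3 RPM, a log2 fold change of 0.27 ± 0.09 (SE, adjusted p = 0.0543). With TMM scaling (0.46, adjusted p = 0.0232) and with DESeq2 (0.41, adjusted p = 0.00443) it was the 1 SINE family called, in place of tRNA, so the direction of the single call depends on the scaling. It was also called higher when scaled to annotated reads (0.27), at a minimum of 100 reads (0.27) and without CD24+ replicate 1 (0.30).

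Among SINE names, 39 had enough reads for the test across 11868 annotations, and Alu and Alu_5 did not. In CD24+ cells 13 names were lower and 1 was higher at an adjusted p below 0.05, while over all annotations 23.6% were called lower and 20.8% higher. The count was 17 without CD24+ replicate 2 and 3 to 5 without any of the other libraries, and 6 with TMM scaling. The share of SINE names called, 14 of 39, lay below the 44.3% of all annotations called in either direction. The log2 fold change was below 0 for 37 of 39 names, with a median of -0.26, or -0.17 without CD24+ replicate 1. With all libraries the median was -0.03 over all annotations and -0.20 over repeats. Within the same test 19.2% of the repeat names were called lower and 5.62% higher. The groups did not overlap for 27 of 39 names, and for 56.3% of all annotations.

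The most abundant name, B3 of the B2 family, had 2010.5, 1855 and 2153 RPM in CD24- and 1317, 1794 and 1751 in CD24+ libraries. Its log2 fold change of -0.31 (SE 0.12) did not pass the test, with an adjusted p of 0.0693. ID_B1, the most abundant B4 name, had a log2 fold change of -0.23 (adjusted p = 0.0913). The young B1_Mus1 had 1453, 1337 and 1505 against 1021, 1245 and 1254 and was lower in CD24+ cells, with a log2 fold change of -0.29 ± 0.10 (SE, adjusted p = 0.0442). In each of these names CD24+ replicate 1 was the lowest library. Without it the log2 fold changes were -0.18 for B3, -0.14 for ID_B1 and -0.20 for B1_Mus1, and none of the 3 passed the test.

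The other names called lower among the Alu family were PB1D10, B1F, PB1D9, B1_Mur4, PB1 and AluF_3. B2_Mm1a (log2 fold change -0.32, adjusted p = 0.0231) and B2_Mm1t (-0.30, adjusted p = 0.0228) were called in the B2 family, where 95.6% and 94.2% of their reads held a widely shared 16-mer. Both calls were lost without CD24- replicate 2 or 3 or CD24+ replicate 1 or 3 (adjusted p from 0.0502 to 0.0985), and that of B2_Mm1a also with TMM scaling (adjusted p = 0.0524). ID, ID4_, MIRc and MamSINE1 completed the list. None of the 4 B4 names was called, although all 4 had a log2 fold change between -0.32 and -0.23. Over the 32 names with at least 50 RPM, the log2 fold changes lay between -0.40 and -0.02.

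Among the names tested, the one with the largest decrease, AluF_3, was rare. It had 8.19, 7.53 and 9.36 RPM in CD24- and 4.20, 4.57 and 4.28 in CD24+ libraries, a log2 fold change of -0.93 ± 0.16 (SE, adjusted p = 0.000843). Reads matching transcripts of Bpnt1, a nucleotidase of sulfur metabolism, made up 70.4% of it and had a log2 ratio of -0.94, and the remaining reads had a log2 ratio of -0.95.

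LFSINE_Vert, an ancient element first described in lobe-finned fishes, was the only name called higher. It had 19.6, 20.9 and 20.2 RPM in CD24- and 24.5, 26.3 and 26.2 in CD24+ libraries, with a log2 fold change of 0.35 ± 0.09 (SE, adjusted p = 0.0129). It did not pass without CD24- replicate 1 or CD24+ replicate 3 (0.33 in both). Nor was it called higher when scaled to unannotated reads, with each distinct sequence counted once, or with repeats tested alone. Most of its reads lay in the transcripts of a few genes. Reads matching Pcbp2 made up 48.7% and had a log2 ratio of 0.40. Those matching Hhip, which binds and restrains Hedgehog ligands, made up 11.4% and stood at 0.312, 0.281 and 0.248 against 2.76, 4.41 and 4.75 RPM. Without Hhip reads the log2 ratio of the name fell to 0.12. Without Pcbp2 reads it was 0.29, and the groups overlapped.

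**Figure D2:**
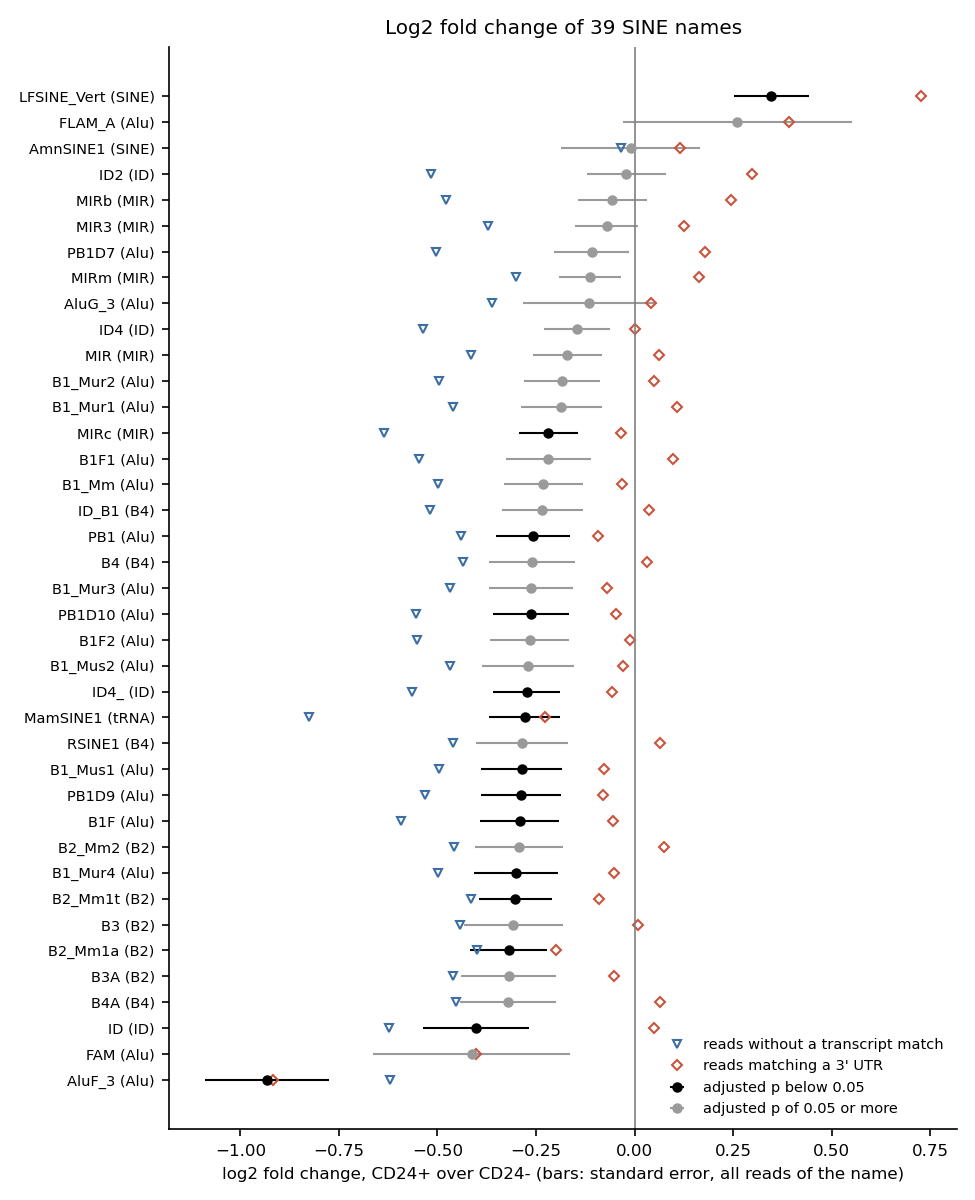
Log2 fold change (CD24+ over CD24-, x axis) of the 39 SINE names tested, with the standard error for all reads of the name; open triangles give the same for reads without a transcript match and open diamonds for reads matching a 3' UTR. Most triangles lie near -0.5 and most diamonds near 0.

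Reads were next split by exact match to the transcripts of GENCODE M21, a split chosen after the data had been seen. A match to a 3' UTR was found for 37.6% to 42.1% of SINE reads in CD24- and 44.2% to 53.9% in CD24+ libraries. These reads stood at 9088, 8806 and 8887 RPM in CD24- and 8769, 8894 and 9230.4 in CD24+ libraries. The groups overlapped fully, with a log2 ratio of 0.01 (exact permutation p = 0.8).

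Reads that matched no transcript stood at 10664, 9378 and 11891 RPM in CD24- and 5590.1, 8913 and 8287 in CD24+ libraries. The groups did not overlap, with a log2 ratio of -0.49 (exact permutation p = 0.1, the smallest possible), and CD24+ replicate 1 was far the lowest. Without it the log2 ratio was -0.31, a value added after the data had been seen. SINE reads matching transcripts with a retained intron were also lower, at 1229, 1133 and 1279 against 599, 897 and 915 RPM (log2 ratio -0.59, exact permutation p = 0.1), or by a log2 ratio of -0.42 without CD24+ replicate 1. Reads without a transcript match and those in retained introns were lower in every CD24+ library than in any CD24- library. So were SINE reads matching coding sequence (log2 ratio -0.15), a 5' UTR (-0.25) and long noncoding or other transcripts (-0.22). The exact permutation test gave p = 0.1 for each. Without CD24+ replicate 1 these log2 ratios were -0.14, -0.25 and -0.14. The sum of SINE reads matching any transcript overlapped between groups (log2 ratio -0.07, exact permutation p = 0.2).

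For reads without a transcript match, 29 of 36 names tested were lower in CD24+ cells and none higher, with a median log2 fold change of -0.49. In that test 44.4% of all annotations were called, 23.7% lower and 20.8% higher. These shares are not a background of unmatched reads. In all tests of split reads only SINE counts were limited, and other annotations and families kept all their reads. The count of lower names was 6 without CD24- replicate 1, 7 without CD24- replicate 3, 16 without CD24+ replicate 1 and 18 without CD24+ replicate 3, with medians from -0.61 to -0.31 over the 6 libraries left out in turn. For reads matching a 3' UTR, 1 of 39 names was lower (AluF_3) and 3 were higher (LFSINE_Vert, ID2 and MIRb), with a median of 0.01 beside 23.5% and 20.8% of annotations called lower and higher. The count of higher names was 1 without CD24- replicate 2 or CD24+ replicate 3 and 2 without CD24- replicate 1, CD24- replicate 3 or CD24+ replicate 2. In the B2 family, 56.8% of reads matched no transcript and 30.0% a 3' UTR, while in the ID family the order was turned, with 31.0% and 61.5%. At the level of families none of the 7 passed the test for unmatched reads, with adjusted p from 0.0648 to 0.0794 for the Alu, B2, B4, ID, MIR and tRNA families and 0.622 for the family labelled SINE. In that test 17.4% of all repeat families were called, 8.7% lower and 8.7% higher.

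Reads of other classes moved alongside. In the sample of 1 in 10 distinct sequences, reads annotated to genes but matching no transcript stood at 34052, 29825 and 37737 RPM in CD24- and 17244, 27593 and 26641 in CD24+ libraries. The order of the 6 libraries was the same as for unmatched SINE reads. The ratio of unmatched SINE reads to unmatched gene reads was 0.313, 0.313 and 0.316 in CD24- and 0.318, 0.322 and 0.310 in CD24+ libraries, a log2 difference of 0.01 (exact permutation p = 0.6). The 2 groups overlapped in this ratio.

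**Figure D3:**
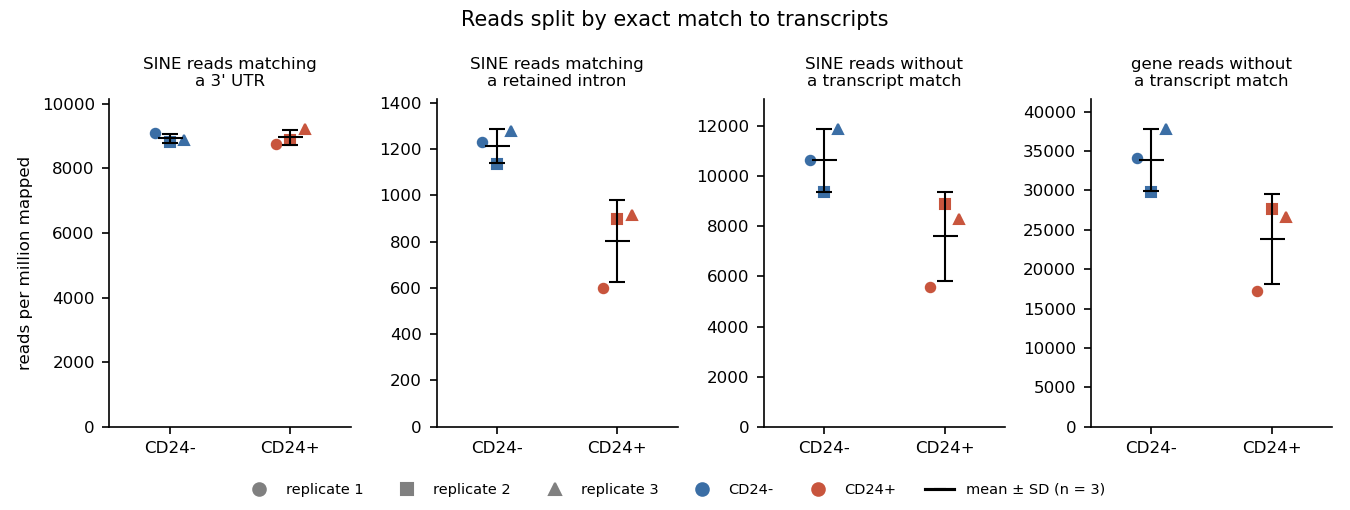
Reads per 1000000 mapped reads (RPM, y axis, from 0) that matched a 3' UTR, a transcript with a retained intron or no transcript, in 3 CD24- and 3 CD24+ libraries, with the mean and SD over 3 libraries in black. SINE reads in 3' UTRs overlap between the groups, while SINE and gene reads without a transcript match are lower in every CD24+ library, and most so in replicate 1.

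SINE reads were also set against other classes of reads. The ratio of SINE to LINE reads was 2.33, 2.27 and 2.38 in CD24- and 1.94, 2.16 and 2.22 in CD24+ libraries, without overlap (log2 difference -0.15, exact permutation p = 0.1, adjusted over 3 ratios p = 0.3). The ratio of SINE to LTR reads overlapped between groups, with a log2 difference of 0.03 (exact permutation p = 0.8, adjusted p = 0.8). The ratio to unannotated reads overlapped as well, with a log2 difference of -0.29 (exact permutation p = 0.2, adjusted p = 0.3). With 3 libraries against 3 none of these could pass a threshold of 0.05.

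Position by position, SINE reads fell into 195684 1-kb windows of mm9, of which 4023 had enough reads for the test and held 50.3% of SINE reads. In CD24+ cells 789 windows were lower and 343 higher at an adjusted p below 0.05, or 28.1% of windows tested (19.6% lower and 8.53% higher). A window that passed the filter only through the group in which it is high had to differ, so this count describes the windows that passed. TMM scaling moved the median window from -0.15 to 0.01 and the split to 605 lower and 514 higher. Log2 fold changes among the called windows lay between -5.99 and 6.71.

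SINE windows mostly moved with the nearest gene. Of 3699 tested windows with a gene within 10 kb, 3027 held reads of the gene inside the window. Both values can then come from the same transcript. Of the 1132 called windows, 1042 had a tested gene with reads within 10 kb. In 926 of these (88.9%) the log2 fold change of the gene had the same sign, a share over called windows only. Over 3669 tested windows with such a gene, which draw on 2389 genes and the same 6 libraries, Pearson's r between the 2 log2 fold changes was 0.76 and Spearman's rho 0.65, given as a description. In windows where at least 90% of SINE reads matched a transcript, the median difference between window and gene was 0.06. In windows where at most 10% did, SINE reads lay below the gene by a median of 0.39 on the log2 scale, and 75.1% of these windows lay below their gene.

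**Figure D4:**
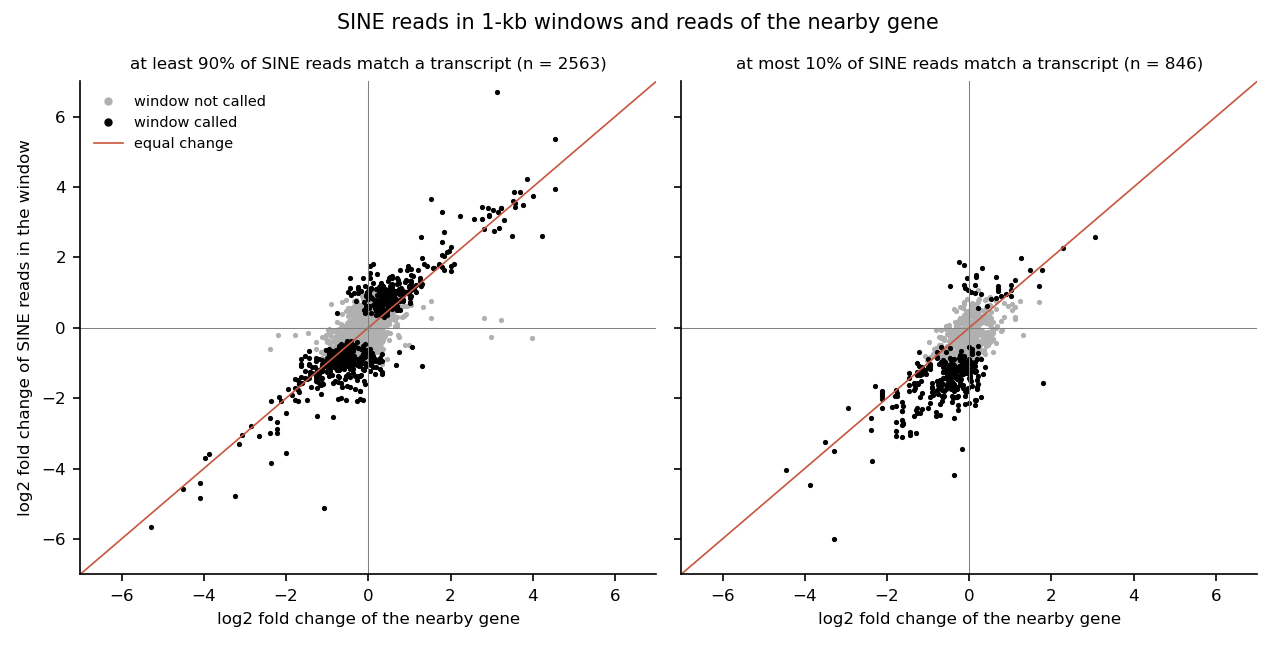
Log2 fold change of SINE reads in a 1-kb window (y axis) against that of the nearby gene (x axis), CD24+ over CD24-, for windows whose SINE reads mostly match transcripts (left, n = 2563) and mostly do not (right, n = 846). Points follow the line of equal change on the left and lie mainly below it on the right.

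The window with most SINE reads carried the Rpl28 copy shown above, on chromosome 4 from 125747000 to 125747999. It had 97.5, 119 and 82.9 RPM in CD24- and 90.4, 83.0 and 88.7 in CD24+ libraries, which overlap. The next, on chromosome 13 from 97868000 to 97868999, held PB1D9 and ID4_ reads that match transcripts of the predicted gene Gm6169, and had 114, 105 and 125 against 64.0, 52.6 and 56.3 RPM. It was lower in CD24+ cells by the test, with an adjusted p of 2.05e-07 and a log2 fold change of -0.997. Exact-match reads of a gene with near-identical copies could have been placed at any of them, so the Rpl28 window is uncertain as a position. Whether Gm6169 has such copies was not examined.

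SINE reads of the other windows among the 10 most abundant also matched transcripts. The PB1D7 window of Cnn2, an actin-binding calponin, rose from 22.5, 21.1 and 28.7 RPM in CD24- to 58.7, 44.6 and 66.1 in CD24+ libraries (log2 fold change 1.23, SE 0.14, adjusted p = 7.08e-08), and the gene had a log2 fold change of 1.31. With each distinct sequence counted once, the Cnn2 window had 0.37 and did not pass (adjusted p = 0.0576). That count drops repeated reads, so it can compress a change in a densely read window. In Ccng1, which encodes cyclin G1, the B1_Mur2 and RSINE1 window rose by 0.32 (adjusted p = 0.0399) and the gene by 0.39. The Ccng1 window did not pass for distinct sequences (log2 fold change 0.07) or when CD24- replicate 1 or 2 or CD24+ replicate 2 or 3 was left out (0.28 to 0.31, adjusted p from 0.0943 to 0.124). The PB1D9 window of Scd2, a stearoyl-CoA desaturase, had a log2 fold change of 0.31 (adjusted p = 0.0524). It passed with TMM scaling (0.48, adjusted p = 0.00392), with DESeq2 (0.46, adjusted p = 0.00854) and without CD24- replicate 2, CD24+ replicate 1 or CD24+ replicate 2 (0.34 to 0.39). Windows in Abce1, Ehd2, Ptrf (also named Cavin1) and Tpm3 and at the Rpl9 copy overlapped between groups, with log2 fold changes from -0.05 to 0.04 and adjusted p from 0.781 to 0.923.

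Among called windows of at least 1 RPM whose groups did not overlap, the 5 largest increases lay in 4 genes. These windows, like those of largest decrease, were near 0 in the lower group and had passed the filter through the other, so their values are a description and no p is given. In Aldh1l2, a mitochondrial enzyme of folate metabolism, a window with B1F, MIR and MIRb reads had 0.156, 0.281 and 0.331 RPM in CD24- and 15.4, 6.61 and 11.7 in CD24+ libraries, a log2 fold change of 5.36 ± 0.35 (SE). The MIR reads of the adjoining window had 3.95, and the gene itself had 4.54. A B1F and ID4_ window in Nfkbie, an inhibitor of NF-kappaB, had 0, 0.0704 and 0.331 against 2.65, 2.16 and 2.80 RPM, a log2 fold change of 4.22, or 5.84 without CD24- replicate 3. In Fbln2, an extracellular matrix fibulin, B1_Mur1 reads stood at 0.234, 0.211 and 0.414 against 3.54, 4.0 and 4.83 (log2 fold change 3.87). The LFSINE_Vert window of Hhip had a log2 fold change of 3.85 beside 3.68 for the gene.

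Of the 5 largest decreases among the same windows, 2 lay in genes of epithelial junctions. B1_Mur4 reads in Ocln, the tight-junction protein occludin, stood at 3.66, 4.5 and 2.57 RPM in CD24- and 0.221, 0.122 and 0.0778 in CD24+ libraries (log2 fold change -4.84, SE 0.40), and the gene had -4.10. B1_Mur3 and B3A reads in Dsg2, a desmosomal cadherin, numbered 82 in the CD24- and 2 in the CD24+ libraries, and the gene had a log2 fold change of -5.28. Per mapped read the CD24- level was 62.1 times the CD24+ level, with an exact 95% counting interval from 16.7 to 521. The interval pools the reads of each group and covers counting error only. It takes no account of the spread between plates or of the choice of this window for its large decrease, so it is not a test. Both CD24+ reads came from replicate 3, and without that library the fitted log2 fold change of the window moved from -5.67 to -7.93, a value that depends on the prior count.

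The other 3 windows of largest decrease lay within 4 kb of chromosome 1, where no read within 10 kb was annotated to a gene. SINE reads of ID_B1 stood at 4.37, 5.98 and 5.13 RPM in CD24- and 0, 0.204 and 0.117 in CD24+ libraries in the window from 7041000 to 7041999 (log2 fold change -5.19, SE 0.35, or -5.78 without CD24+ replicate 2). The windows starting at 7039000, with B1F, B2_Mm2 and ID4 reads, and at 7042000, with B1F reads, had log2 fold changes of -5.13 and -4.72. None of these reads matched a GENCODE M21 transcript. The most frequent reads of the windows starting at 7041000 and 7042000, with 9 and 8 copies, are shown as examples of reads at this locus. Neither was seen in a CD24+ library. At so few copies, in windows chosen for a low CD24+ level, that adds nothing to the window values.
ID_B1, family B4, chr1:7041196-7041242: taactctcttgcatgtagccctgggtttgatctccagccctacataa
B1F, family Alu, chr1:7042392-7042438: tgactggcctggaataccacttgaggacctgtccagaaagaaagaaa

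Taking the 3 windows with 10 kb on either side, from 7029000 to 7052999, SINE reads stood at 31.3, 33.1 and 40.1 RPM in CD24- and 0.995, 1.39 and 1.95 in CD24+ libraries, a 24.1-fold difference of the means. LINE reads of the region differed 25.1-fold, LTR reads 27.5-fold and unannotated reads 27.4-fold, so SINE reads moved with everything else read there. Reads came from both strands in like amounts, at a mean of 161 and 166 RPM in CD24- libraries, as the library kit does not keep strand. No read of the region was annotated to a gene. The nearest gene reads were those of Pcmtd1, 26.1 kb after the region, and of St18, 178.7 kb before it. The region was outlined after the windows had been seen, and no test was run on it.

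**Figure D5:**
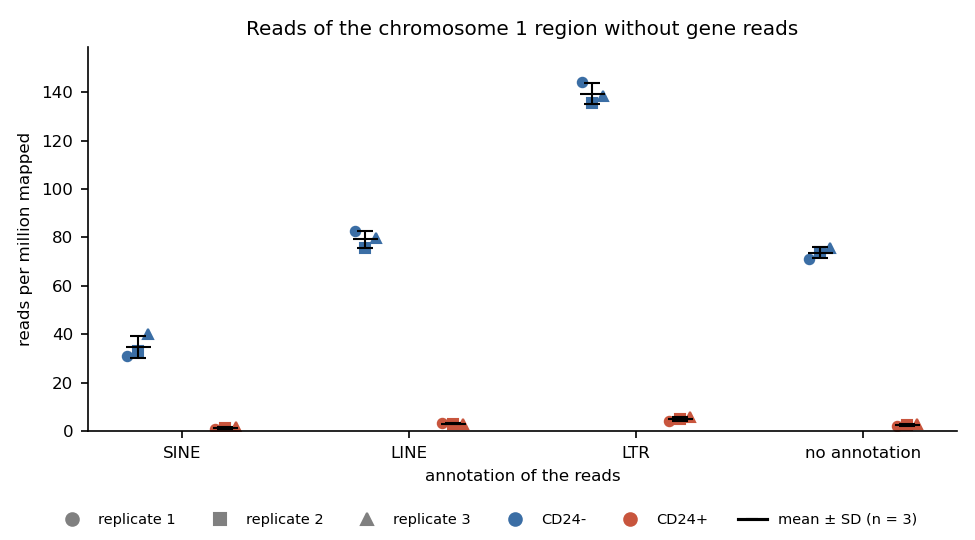
Reads per 1000000 mapped reads (RPM, y axis, from 0) in the region of chromosome 1 without reads annotated to genes, by annotation of the read, in 3 CD24- (blue) and 3 CD24+ (red) libraries with mean and SD. All 4 classes stand high in the CD24- libraries and near 0 in the CD24+ libraries.

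Sequence features were compared within the 5 abundant families. The B box was found in 9.57% ± 0.620 of B2 reads in CD24- and 10.5% ± 0.837 in CD24+ libraries (SD, n = 3 each), and in 8.66% ± 0.0851 and 8.82% ± 0.119 of Alu reads. In the sample of 1 in 10 sequences, 7.07% to 7.82% of SINE reads and 1.21% to 1.28% of gene reads held it. The A box letters TGGCNCA, searched on both strands, were held by 14.9% ± 0.969 of B2 reads in CD24- and 14.8% ± 0.504 in CD24+ libraries. The groups overlapped for both motifs in these families (exact permutation p from 0.3 to 0.9), in a design that cannot go below 0.1. Of 20 features tested, 3 did not overlap between groups, the polyadenylation signal AATAAA in B4 and MIR reads and the A box in MIR reads, each lower in CD24+ cells, and none had an adjusted p below 0.545. A read of 47 bases seldom spans a whole element, so these are shares of reads and not of elements.

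The genes of SINE transcription and control were tested with TMM over 11108 genes, of which 46.1% were called, 22.3% lower and 23.9% higher. Of 12 matched RNA polymerase III subunits, 2 were lower and none higher in CD24+ cells. Polr3e stood at 54.3, 54.1 and 70.2 CPM in CD24- and 37.7, 43.0 and 38.7 in CD24+ libraries (log2 fold change -0.57, adjusted p = 0.00266), and the catalytic subunit Polr3a had -0.53 (adjusted p = 0.00773). Crcp, with 0.46, did not pass (adjusted p = 0.0643). Of 12 polymerase III factors 2 were lower, Gtf3c1 (log2 fold change -0.47, adjusted p = 0.00314) and Gtf3c4 (-0.25, adjusted p = 0.0418), both subunits of TFIIIC, which binds the B box. Maf1, the repressor of polymerase III, had 0.32 (adjusted p = 0.0502).

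Of 7 genes whose proteins bind or process SINE RNA, 3 were lower. They were the methyltransferase Ezh2 (log2 fold change -0.54, adjusted p = 0.00118), the nuclease Dicer1 (-0.44, adjusted p = 0.00891) and the helicase Dhx9 (-0.43, adjusted p = 0.0066). The signal recognition particle proteins had -0.17 (Srp9, adjusted p = 0.214) and 0.04 (Srp14, adjusted p = 0.768). Of 11 matched genes of SINE chromatin repression 5 were lower and 2 higher. Suv39h1, a histone H3 lysine 9 methyltransferase, had the largest decrease of this list (log2 fold change -0.91, adjusted p = 9.43e-05). It stood at 95.0, 90.5 and 101 CPM in CD24- and 42.2, 58.5 and 50.2 in CD24+ libraries. Cbx5, a heterochromatin protein, rose by 0.35 (adjusted p = 0.00576) and Hells, a chromatin remodeler, by 0.30 (adjusted p = 0.047). The medians of the 4 lists lay between -0.17 and -0.03, and 14 of 42 genes called is a smaller share than that of all genes.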

How the data were processed

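Polyadenylated RNA of 3 CD24- and 3 CD24+ plates was sequenced as single-end reads, which the authors trimmed at both ends to 47 nt. The authors deposited, for each library, every distinct mapped sequence with its raw count, one mm9 position and one annotation chosen by a fixed order of classes. Only exact matches to the genome were kept, so reads with a sequence difference between FVB/N and the reference, a sequencing error or a splice junction are missing. How a position was chosen for a read with several exact matches is not given in the sources used here. Positions of single copies are therefore uncertain, while sums over a name depend on it less. Positions are printed as the files give them, and strand is not kept by the kit.

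SINE counts were summed per name, family and 1-kb window. Names were tested within all annotations, families within 46 repeat families and windows among themselves with the quasi-likelihood test of edgeR 4.0.16 (R 4.3.3), with all mapped reads as library size, edgeR's filter on low counts and Benjamini-Hochberg adjustment at 0.05. Genes were tested with TMM factors, and CPM is the gene reads scaled to 1000000 with TMM factors. The log2 fold changes of genes set beside windows are instead from the test of all annotations, without TMM factors. Single values were compared by two-sided exact permutation (Python 3.11.15). Reads were matched exactly to GENCODE M21 transcripts, with no coordinates taken from that build. DESeq2 1.42.0 served as an alternative, and scripts were tested on simulated data.

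Named were all families, the 10 most abundant names and up to 10 called names of largest change, the 10 most abundant windows, the 5 largest increases and decreases among called windows of at least 1 RPM without overlap, and list genes by size of change. Reads shown are the most frequent of a family or window outside UTRs. Those with a B box, and further names, genes and the chromosome 1 region, were added after values were seen. The members and gene lists were chosen with earlier results of these data known. No column of per-sample values was left out.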

Additional observations from a re-analysis of the deposited data

How the results depend on the processing

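Of the SINE names, 14 were called. The count was 6 with TMM factors, 1 when scaled to unannotated reads and 1 for distinct sequences. It was 2 with at most 10 reads per sequence, 1 when tested among repeats alone, and 3 to 17 when 1 library was left out. It rose to 18 with DESeq2, 18 when scaled to annotated reads and 20 with no filter on low counts. After seeing the data, reads were also split by transcript, which gave 3 names for matching reads, 29 for reads without a match and 4 for reads in 3' UTRs. The 1 family called, tRNA (lower), was replaced by the family labelled SINE (higher) with TMM or DESeq2. The number of families called became 4 when scaled to annotated reads, 2 among families with at least 100 reads, 0 when scaled to unannotated reads, for distinct sequences, with at most 10 reads per sequence and for reads with or without a transcript match, and 0 to 2 without 1 library. The windows called, 1132 of 4023, became 249 of 577 at a minimum of 50 reads, 668 of 4194 with DESeq2, 387 of 1025 for reads without a transcript match and 974 to 1211 without 1 library. The 14 list genes called ranged from 11 to 18. The replicate numbers were not used as a pairing. No pairing of plates is described, and same-numbered libraries had deviation correlations of 0.00605, -0.264 and -0.288. With a replicate block the calls were 6 names, 0 families, 966 windows and 13 list genes. The SINE share had a log2 ratio of -0.31 to -0.16 without 1 library and 0.00598 for reads in 3' UTRs. Without 1 library the SINE to LTR ratio ranged from -0.0114 to 0.0854, turning sign without CD24- replicate 2 or CD24+ replicate 2, the SINE to LINE ratio from -0.18 to -0.09 and the ratio to unannotated reads from -0.39 to -0.11. Signs turned for MIR (0.0736 with TMM, 0.0215 with DESeq2, 0.0213 for reads matching transcripts and 0.106 in 3' UTRs), for the SINE family without a transcript match (-0.18), and in 3' UTRs for the B4 family (0.0452), the ID family (0.00372), B3 (0.0099), ID_B1 (0.0357), RSINE1 (0.0642), B2_Mm2 (0.0756), B4A (0.0643) and ID (0.0489). They also turned for windows near 0, with TMM in Ehd2 (0.15), Ptrf (0.15), Tpm3 (0.12) and the Rpl9 copy (0.13), with DESeq2 in the same windows (0.13, 0.13, 0.10 and 0.11), for distinct sequences in Abce1 (-0.13) and Scd2 (-0.0751), and without 1 library in Abce1 (from -0.0557 to 0.157), Ehd2 (from -0.0952 to 0.0267), Ptrf (from -0.146 to 0.0717), Tpm3 (from -0.13 to 0.0137) and the Rpl9 copy (from -0.122 to 0.0809). The cause of these changes was not tested.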

Other observations

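SINE reads made of ribosomal RNA sequence, defined as at least 16 of the 32 16-mers of a read found in reads annotated to ribosomal RNA, stood at 52.6, 46.4 and 50.9 RPM in CD24- and 65.8, 99.3 and 66.2 in CD24+ libraries. They were 0.330% of SINE reads and stood higher in every CD24+ library than in any CD24- library. Most lay in the B2 and B4 families.

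SINE reads matched transcripts of many genes, and the 10 with most reads held 3.48% of all SINE reads. Scd2 led with 95.2, 98.6 and 84.6 RPM in CD24- and 101, 106 and 123 in CD24+ libraries, which did not overlap. In the sample of 1 in 10 distinct sequences, LTR reads without a transcript match stood at 15856, 14662 and 15164 against 9162, 10870.5 and 10907 RPM (log2 ratio -0.56, exact permutation p = 0.1). LINE reads without a match overlapped between groups (log2 ratio -0.39, exact permutation p = 0.2). Without CD24+ replicate 1 the log2 ratios were -0.48 for LTR and -0.23 for LINE reads.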
